A study of Mus musculus with 9 samples.

Results

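The miR-30 family is a group of microRNAs whose guide strands share the seed by which they find their target messages. Its members in this study of mouse skin were mmu-miR-30a-5p, mmu-miR-30a-3p, mmu-miR-30b-5p, mmu-miR-30b-3p, mmu-miR-30c-5p, mmu-miR-30d-5p, mmu-miR-30d-3p, mmu-miR-30e-5p and mmu-miR-30e-3p, written below without the prefix for mouse. They were 9 of the 1129 rows of the deposited table, taken by their names as a family chosen with earlier results of these data known, and all 9 passed the filter on low counts, as did 447 rows in all. The small RNA came from the backs of adult C57BL/6 females, an inbred laboratory strain, at an age of 6 months. All were wounded there under pentobarbital anesthesia with a punch of 8 mm diameter. The 9 libraries form 3 groups of 3, namely the skin that the punch removed at wounding (day 0), skin of the wound edge at day 7, and diabetic skin, from a mouse model of diabetes that was wounded in the same way. How diabetes was brought about was not stated. Among the labels of the diabetic group, the titles read T7, the column names read T0 and the treatment is worded as for skin taken at wounding, so its day of collection is not settled and it was compared with both other groups. The labels speak of 9 mice without saying which libraries came from the same animal, so p-values measure the spread between these libraries only.

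A miRNA hairpin can give 2 mature strands, called 5p and 3p after the arm they come from. The strand that is loaded into the silencing complex more often is the guide, and the other is often degraded. In the miR-30 family the 5p strand is the usual guide. The seed, bases 2 to 8 from the 5′ end, pairs with sites in target messages, which are then translated less or destroyed. Known miR-30 targets include Snai1, a transcription factor of epithelial to mesenchymal transition, and Ctgf, a matricellular growth factor of fibrosis described as a target in rodent heart. In mouse adipocytes the family is known for promoting the thermogenic program.

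RefSeq sequences (build GRCm38.p6) matched 5 of the 9 members, and miR-30b-5p, miR-30b-3p, miR-30d-5p and miR-30d-3p are named only. The sequences are shown because the matched guides share a seed and differ by few bases outside it, which bears on how well counts of members can be kept apart. Capitals mark the seed.
miR-30a-5p: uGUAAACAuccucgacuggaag
miR-30e-5p: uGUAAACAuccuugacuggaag
miR-30c-5p: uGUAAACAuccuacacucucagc
miR-30a-3p: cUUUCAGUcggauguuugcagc
miR-30e-3p: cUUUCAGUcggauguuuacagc
The matched guides carry the seed GUAAACA, which was found in 4 of the 936 table rows with a sequence, the fourth being miR-384-5p. Both matched opposite arms carry another seed, UUUCAGU, found in these 2 rows alone among the 936. Counting positions from 1 at the 5′ end, miR-30a-5p and miR-30e-5p are the same at 21 of 22 positions and differ by C13U. Their opposite arms differ by G18A and are also the same at 21 of 22. From miR-30a-5p to miR-30c-5p the substitutions are C13A, G14C, G18C, G19U and A20C. The sources used here do not state the mismatches allowed in counting, so reads of miR-30a and miR-30e could be split between these rows, and their separate levels are uncertain to that extent. For miR-30b and miR-30d, which had no matched sequence, this could not be checked, so their separate levels may be uncertain as well.

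The matched hairpins lie at a pair of places in the genome. Mir30a gives miR-30a-5p at chr1:23272274-23272295 and miR-30a-3p at chr1:23272315-23272336, both on the plus strand, and overlaps no other annotated gene in GENCODE M21. Mir30c-2, 19361 bases from the Mir30a hairpin, gives miR-30c-5p at chr1:23291714-23291736 on the plus strand and overlaps an exon of the lincRNA Gm27028. On chromosome 4, Mir30e gives miR-30e-5p at chr4:120772660-120772681 and miR-30e-3p at chr4:120772618-120772639 on the minus strand. Mir30c-1 lies 2983 bases from Mir30e and gives an identical miR-30c-5p at chr4:120769584-120769606 on the minus strand. Both lie inside the protein-coding gene Nfyc, a subunit of the transcription factor NF-Y, on its strand and outside its exons. Counts of miR-30c-5p therefore cannot be assigned to either of its 2 hairpins.

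Library totals ranged from 2537167 to 5453539 counts, of which 58470 to 196380 were miR-30 counts, and 667 to 805 rows had a count. A large and varying part of the counts was miR-21a-5p, a miRNA induced in wounds, which held 18.6% to 33.2% of all counts in the day 0 libraries, 40.6% to 55.6% at day 7 and 13.7% to 19.4% in diabetic skin. Levels below are CPM, counts brought to 1 library size with TMM factors. This scaling sets a typical miRNA to no change, so levels are relative to other miRNAs, and they are not divided by length. The diabetic libraries differed widely in the summed level of 4 striated muscle miRNAs (miR-1a-3p, miR-133a-3p, miR-133b-3p and miR-206-3p). It was 30278, 76559 and 132595 CPM in replicates 1, 2 and 3, so replicate 1 was the lowest and replicate 3 the highest of all libraries. The same sum was 44321 to 62619 CPM at day 0 and 50399 to 100708 CPM at day 7, and none of the 4 was called in any comparison. The liver miRNA miR-122-5p was 2.87 to 3.13 CPM in replicate 2 of each group and 55.1 to 171 CPM in the other libraries.

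The 9 members together held 3.41%, 2.86% and 2.90% of counts in day 0 replicates 1, 2 and 3. Their share was 2.03%, 2.12% and 2.30% in the day 7 libraries and 3.69%, 3.83% and 3.804% in the diabetic libraries. The 3 groups did not overlap, with day 7 lowest and the diabetic group highest. Mean shares were 3.06% ± 0.308 (SD, n = 3) at day 0, 2.15% ± 0.142 at day 7 and 3.78% ± 0.0765 in diabetic skin. Each of the 3 differences gave an exact two-sided permutation p of 0.1, the smallest that 3 against 3 allows (20 arrangements), and 0.112 after Benjamini-Hochberg adjustment over 9 such tests. The place of day 7 in this order rested on miR-21a-5p in the total. With miR-21a-5p left out of the total, the share was 4.16% ± 0.151 (SD, n = 3) at day 0, 4.31% ± 0.373 at day 7 and 4.53% ± 0.107 in diabetic skin. The difference of day 7 from day 0 then turned from -0.907 to 0.153 percentage points (exact permutation p = 0.6). The diabetic group still lay above day 0 without overlap, by 0.374 percentage points (exact permutation p = 0.1). It overlapped day 7, with a mean 0.220 above (exact permutation p = 0.5).

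**Figure D1:**
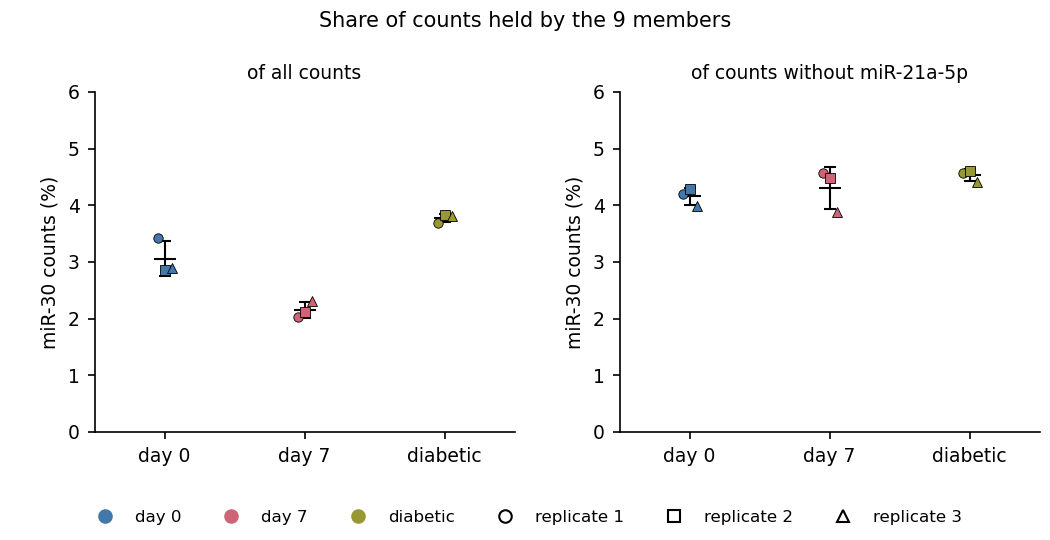
Share of library counts held by the 9 miR-30 members (percent, y axis) in each library by group, of all counts (left) and of counts without miR-21a-5p (right). Points are libraries, shaped by replicate number, and bars give the mean and SD of 3. The groups stand apart on the left, where day 7 averaged 2.15%, and come close together on the right, where it averaged 4.31%. On the right the diabetic libraries still lie above those of day 0.

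Nearly all miR-30 counts were guide strands. The 5 guides held 3.02% ± 0.308 (SD, n = 3) of all counts in the day 0 libraries, 2.13% ± 0.139 at day 7 and 3.73% ± 0.0741 in diabetic skin. The 4 opposite arms held 0.0373% ± 0.00294 (SD, n = 3) at day 0, 0.0215% ± 0.00369 at day 7 and 0.0433% ± 0.00861 in diabetic skin. Within the family the order of levels was fixed, with miR-30a-5p above miR-30d-5p, then miR-30e-5p, miR-30c-5p, miR-30b-5p, miR-30a-3p and miR-30e-3p, and each member stood above the next in 9 of 9 libraries. The lowest pair changed places, and miR-30d-3p was above miR-30b-3p in 4 of 9 libraries. Among all rows miR-30a-5p ranked between 9 and 12 by count and miR-30d-5p between 17 and 28. The ranks were 26 to 36 for miR-30e-5p, 51 to 63 for miR-30c-5p and 59 to 86 for miR-30b-5p, while the opposite arms ranked from 105 to 280. The members differ little in length, since those with a sequence have 22 or 23 bases. Ligation and amplification of small RNA also differ between sequences, so levels of different members are not amounts.

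**Figure D2:**
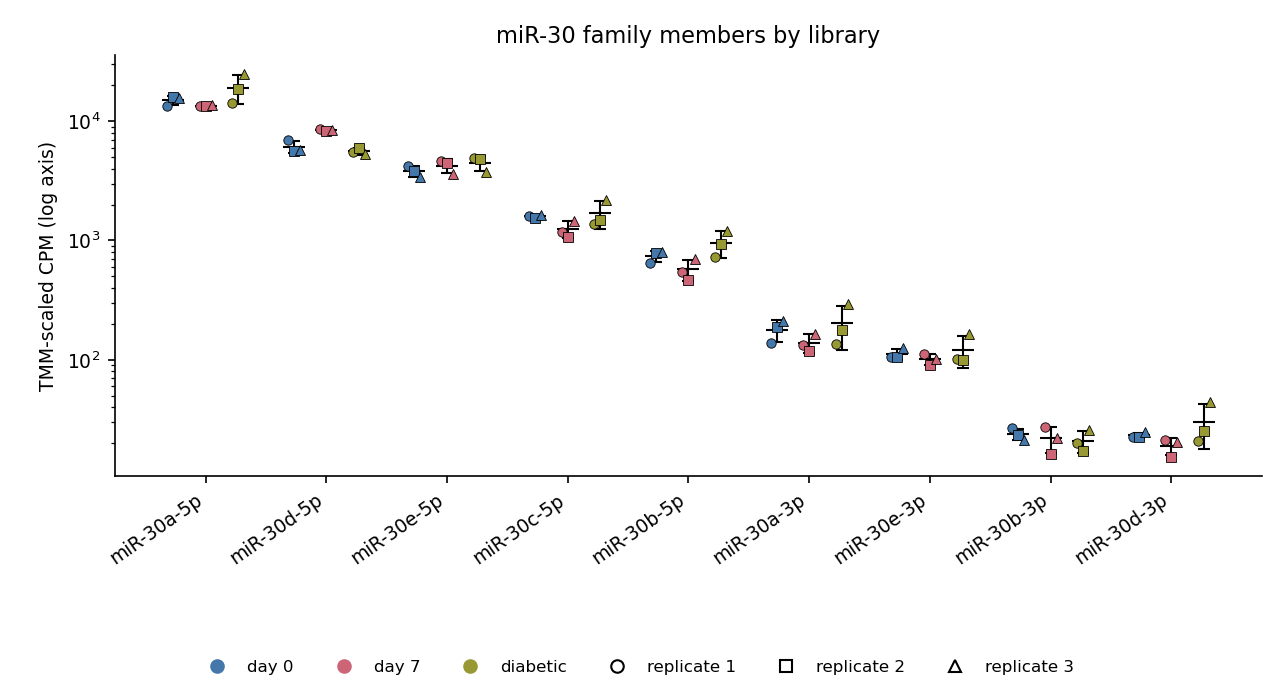
Levels of the 9 miR-30 members (TMM-scaled CPM, log axis) in each library, ordered by mean level except that miR-30b-3p stands before miR-30d-3p. Points are libraries, coloured by group and shaped by replicate, and bars give the mean and SD of 3. The guides span from about miR-30a-5p at 13278 to 24626 CPM down to miR-30b-5p at 469 to 1212 CPM, and the opposite arms lie below them.

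Between day 0 and day 7, which asks how the family stood at the wound edge after a week, no member passed the test. edgeR's quasi-likelihood test, fitted over all 447 miRNAs, called 0 of 9 members higher and 0 lower at an adjusted p under 0.05, against 8.05% of all miRNAs called higher and 4.7% lower. At an unadjusted p under 0.05 stood 1 of the 9 members and 126 of the 447 miRNAs, and DESeq2 called 70 of the 447. By range alone, the 3 day 7 libraries lay above the 3 day 0 libraries for 1 member (18.3% of all miRNAs) and below them for 2 members (12.1%). Those were miR-30d-5p above, and miR-30c-5p and miR-30d-3p below. The median log2 fold change was -0.16 over the 9 members and 0.08 over all miRNAs tested. Leaving out 1 library gave members' medians from -0.38 (without day 7 replicate 1) to -0.17.

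The guide miR-30d-5p had 6895, 5625 and 5694 CPM in day 0 replicates 1, 2 and 3, and 8532, 8234 and 8347 CPM in the day 7 libraries. Every day 7 library stood above every day 0 library, and the day 7 libraries lay close together. The log2 difference was 0.46 ± 0.14 (SE), with an edgeR adjusted p of 0.0518 and an unadjusted p of 0.00695. It passed the threshold without day 0 replicate 1 (0.50, edgeR adjusted p = 0.0450) and with miRNAs under a mean of 10 CPM left out (0.50, edgeR adjusted p = 0.0340), and the edgeR, DESeq2 and limma adjusted p ranged from 0.0340 to 0.855 over 19 alternatives. When libraries were scaled by total count, which lets miR-21a-5p weigh on every value, it was -0.09.

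For miR-30c-5p the day 0 libraries had 1598, 1540 and 1633 CPM and the day 7 libraries 1184, 1077 and 1466 CPM. The groups did not overlap, with day 7 the lower. The log2 difference was -0.36 ± 0.19 (SE; edgeR adjusted p = 0.255). The guide miR-30b-5p had 647, 781 and 794 CPM at day 0 and 546, 469 and 703 CPM at day 7, and the groups overlapped (log2 difference -0.37 ± 0.21, edgeR adjusted p = 0.278). The remaining guides differed less. Levels of miR-30a-5p were 13484, 15866 and 15618 CPM at day 0 and 13278, 13402 and 13703 CPM at day 7. Day 0 replicate 1 lay among the day 7 values, and the log2 difference was -0.16 ± 0.20 (edgeR adjusted p = 0.656). Levels of miR-30e-5p were 4211, 3800 and 3415 CPM at day 0 and 4628, 4493 and 3612 CPM at day 7, with wide overlap (0.16 ± 0.16, edgeR adjusted p = 0.557).

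The 4 opposite arms had lower means at day 7 than at day 0, and none passed, with edgeR adjusted p from 0.429 to 0.785. The most abundant, miR-30a-3p, had 139, 187 and 212 CPM at day 0 and 133, 118 and 166 CPM at day 7 (log2 difference -0.37 ± 0.28). The groups overlapped between 139 and 166 CPM. The rarest, miR-30b-3p and miR-30d-3p, rested on 43 to 153 counts a library, and their log2 differences were -0.12 ± 0.26 and -0.28 ± 0.29. For miR-30e-3p the difference was -0.14 ± 0.23.

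Scaling by total count gave another picture, because it moved the median of all miRNAs from 0.08 to -0.46. On that scale edgeR called 6 of the 9 members lower at day 7 (both arms of miR-30a, miR-30b-5p, miR-30c-5p, miR-30d-3p and miR-30e-3p), beside 117 miRNAs lower and 16 higher in all. The TMM fit had 21 lower and 36 higher, and upper-quartile scaling 34 and 26. The median of the 9 members was then -0.69, so on either scale it lay below the median of all miRNAs.

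Between the diabetic group and day 0, the members gave no call. The edgeR test called 0 of 9 members higher and 0 lower, and the same held for all miRNAs, of which 0% were called higher and 0% lower. At an unadjusted p under 0.05 stood 0 of 9 members and 40 of 447 miRNAs, and DESeq2 called 5 of the 447. The ranges of the 2 groups overlapped for all 9 members, while 8.28% of miRNAs lay wholly higher and 5.59% wholly lower. Median log2 fold changes were 0.17 over the members and 0.04 over all miRNAs. Leaving out 1 library gave members' medians up to 0.24, 0.082 without day 0 replicate 1, and a turn to -0.092 without diabetic replicate 3, where that of all miRNAs was -0.014. The diabetic libraries had 14107, 18499 and 24626 CPM of miR-30a-5p and 725, 931 and 1212 CPM of miR-30b-5p. Replicate 3 was the highest for both guides, and replicate 1 lay within the day 0 range of both. The log2 differences from day 0 were 0.35 ± 0.20 (SE) for miR-30a-5p and 0.37 ± 0.21 for miR-30b-5p, both with an edgeR adjusted p of 0.680. Without diabetic replicate 3 they were 0.10 and 0.14, with edgeR adjusted p of 0.900 and 0.869, within ranges of 0.394 to 0.944 and 0.401 to 0.944 over the alternatives.

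Between the diabetic group and day 7, which shares the day 7 libraries with the first comparison, edgeR called 1 of 9 members higher and 1 lower. Of all miRNAs 7.83% were called higher and 12.1% lower, so these counts are near the background. The member that rose was the guide miR-30b-5p, 1.67-fold higher in diabetic skin, and the member that fell was the guide miR-30d-5p, 1.495-fold lower. At an unadjusted p under 0.05 stood 4 of the 9 members and 156 of the 447 miRNAs, and DESeq2 called 102 of the 447. The diabetic libraries lay wholly above day 7 for 2 members (17.4% of all miRNAs) and wholly below for 1 (20.8%). Those above were miR-30a-5p and miR-30b-5p, and the member below was miR-30d-5p. The median log2 fold change was 0.44 over the members and -0.02 over all miRNAs. Without diabetic replicate 3 it was 0.22 over the members and -0.077 over all.

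The 3 diabetic libraries had 725, 931 and 1212 CPM of miR-30b-5p, against 546, 469 and 703 CPM at day 7. The groups came close, between the lowest diabetic and the highest day 7 library, and did not overlap. The log2 difference was 0.74 ± 0.21 (SE; edgeR adjusted p = 0.0299). The call was lost without day 7 replicate 1 (0.75, edgeR adjusted p = 0.0902), day 7 replicate 2 (0.67, 0.0928), diabetic replicate 2 (0.80, 0.0575) or diabetic replicate 3 (0.57, 0.0625). Over 19 alternatives the difference stayed between 0.57 and 1.36 and passed in 15, with adjusted p from 0.000608 to 0.0928 by edgeR, DESeq2 or limma.

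For miR-30d-5p the diabetic libraries had 5550, 5998 and 5249 CPM, against 8532, 8234 and 8347 CPM at day 7. The groups were far apart, and the diabetic values lay about where day 0 replicates 2 and 3 lay. The log2 difference was -0.58 ± 0.14 (SE; edgeR adjusted p = 0.0139). It passed in 10 of 19 alternatives, with adjusted p from 0.00651 to 0.858 by edgeR, DESeq2 or limma. The edgeR adjusted p was 0.0925, 0.0703 and 0.0508 without day 7 replicates 1, 2 and 3 (-0.52, -0.53 and -0.55), and 0.0675 and 0.0551 without diabetic replicates 2 and 3 (-0.59 and -0.50). It was 0.0680 with upper-quartile scaling (-0.48) and 0.149 with no filter on low counts (-0.48). With total-count scaling, which moved the median of all miRNAs to 0.61, the difference was 0.07 and the call was gone, and edgeR called 7 of the other members higher, beside 174 miRNAs higher and 24 lower in all. The TMM fit had 35 higher and 54 lower, and upper-quartile scaling 45 and 41.

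The other guides gave smaller differences. The diabetic values of miR-30a-5p, given above, all exceeded those of day 7, by a log2 difference of 0.50 ± 0.20 (SE; edgeR adjusted p = 0.107). It passed in 4 of 19 alternatives, with adjusted p from 0.00127 to 0.231 by edgeR, DESeq2 or limma. The 4 were total-count scaling (1.11), limma (1.10), no filter on low counts (0.60) and leaving out diabetic replicate 1 (0.69), while without diabetic replicate 3 the difference was 0.31. Diabetic levels of miR-30c-5p were 1364, 1494 and 2196 CPM, overlapping day 7 at the lowest library (0.44 ± 0.19, edgeR adjusted p = 0.129). Those of miR-30e-5p were 4868, 4787 and 3710 CPM, much as at day 7 (0.07 ± 0.16, edgeR adjusted p = 0.784). Diabetic replicate 3 was the highest library of the group for miR-30a-5p, miR-30b-5p and miR-30c-5p and the lowest for miR-30d-5p and miR-30e-5p.

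Among opposite arms, diabetic levels of miR-30a-3p were 136, 178 and 292 CPM and those of miR-30d-3p were 21.0, 25.2 and 44.1 CPM. Replicate 3 was again the highest, and replicate 1 lay among the day 7 libraries. The log2 differences from day 7 were 0.54 ± 0.28 (SE; edgeR adjusted p = 0.205) and 0.64 ± 0.29 (edgeR adjusted p = 0.143). Those of miR-30e-3p and miR-30b-3p were 0.26 ± 0.23 and -0.07 ± 0.26, with edgeR adjusted p of 0.442 and 0.882. Without diabetic replicate 3 the differences were 0.21 for miR-30a-3p, 0.31 for miR-30d-3p, 0.038 for miR-30e-3p and -0.19 for miR-30b-3p.

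**Figure D3:**
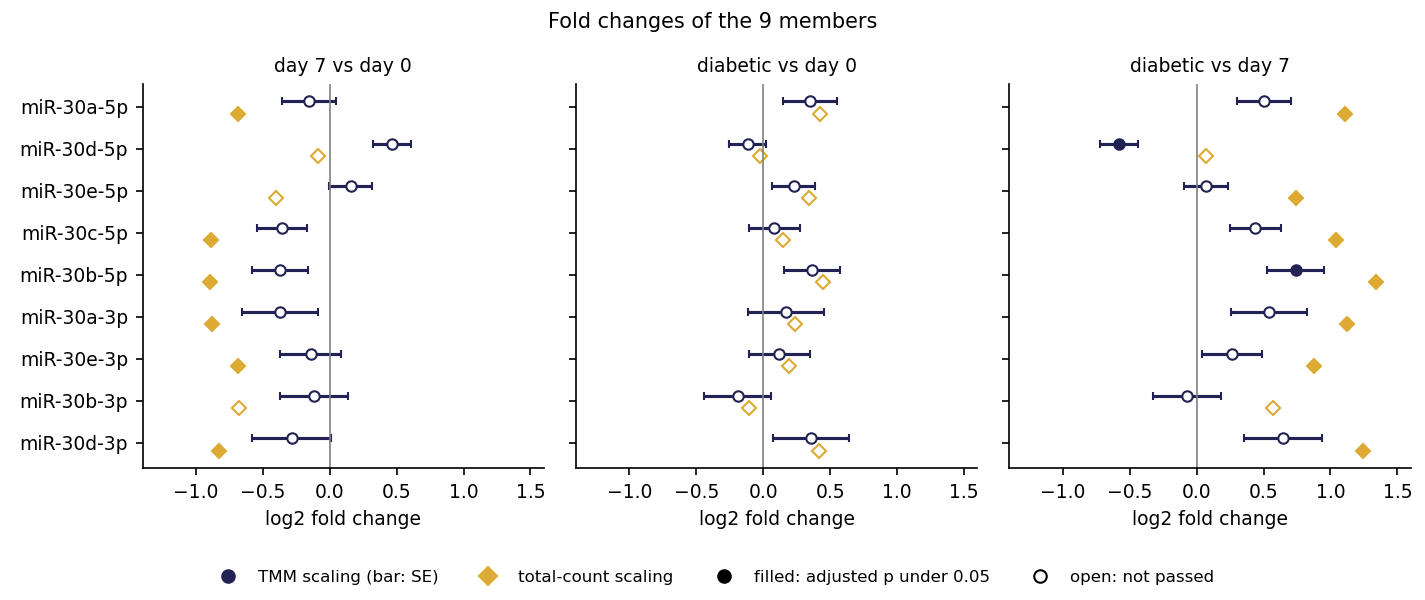
Log2 fold changes of the 9 members (x axis) in the 3 comparisons. Circles are the TMM-scaled edgeR fit with SE bars and diamonds are total-count scaling, and filled symbols passed an adjusted p under 0.05. On the TMM scale only miR-30b-5p (0.74) and miR-30d-5p (-0.58) of diabetic against day 7 are filled, while on total counts most members shift together away from 0 wherever day 7 is compared.

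The mix of guides within the family does not depend on library scaling or on miR-21a-5p. It was computed as each guide's share of the summed counts of the 5 guides. The mix does depend on how reads were assigned among guides of similar sequence, which could not be checked for miR-30b-5p and miR-30d-5p. The share of miR-30d-5p was 25.7%, 20.4% and 21.0% in day 0 replicates 1, 2 and 3. It was 30.3%, 29.8% and 29.99% in the day 7 libraries and 20.9%, 18.9% and 14.2% in the diabetic libraries. Day 7 stood above every library of the other groups, and its 3 values were nearly the same. The share of miR-30a-5p was 50.2%, 57.5% and 57.5% at day 0, 47.1%, 48.4% and 49.2% at day 7. In the diabetic libraries it was 53.0%, 58.3% and 66.6%. Here day 7 lay below every library of the other groups.

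From day 0 to day 7 the mean share of miR-30d-5p went from 22.3% ± 2.92 (SD, n = 3) to 30.01% ± 0.268, a gain of 7.67 percentage points. That of miR-30a-5p went from 55.1% ± 4.18 (SD, n = 3) to 48.3% ± 1.06, and that of miR-30c-5p from 5.85% ± 0.237 to 4.45% ± 0.721. These 3 did not overlap between the groups and gave an exact two-sided permutation p of 0.1 each, the smallest possible, or 0.25 after Benjamini-Hochberg adjustment over 15 tests. The shares are parts of 1 sum, so a gain of 1 guide must lower others, and they are not separate results. In CPM the groups overlapped for miR-30a-5p (log2 difference -0.16, edgeR adjusted p = 0.656). The shares of miR-30b-5p (2.72% and 2.05%, exact permutation p = 0.2) and miR-30e-5p (14.0% and 15.2%, exact permutation p = 0.5) overlapped. In the diabetic group the shares were 59.3% ± 6.83 (SD, n = 3) for miR-30a-5p, 17.99% ± 3.43 for miR-30d-5p and 2.98% ± 0.279 for miR-30b-5p. These shares differed from day 7 by 11.04, -12.03 and 0.926 percentage points, without overlap and with an exact permutation p of 0.1 each (0.25 adjusted). Against day 0 all 5 shares overlapped in diabetic skin, with exact permutation p from 0.2 to 0.9. Within same-numbered libraries, compared after the data were seen, 4 of the 5 shares differed in 1 direction in 3 of 3 pairs. Those of miR-30a-5p and miR-30b-5p were higher and those of miR-30c-5p and miR-30d-5p lower in diabetic skin. Their exact paired permutation p was 0.25 each, the smallest that 3 pairs allow, and as parts of 1 sum they are not separate results. Without diabetic replicate 3 the difference from day 7 was 7.41 points for miR-30a-5p and -10.1 points for miR-30d-5p (exact permutation p = 0.2 each, with 2 against 3).

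**Figure D4:**
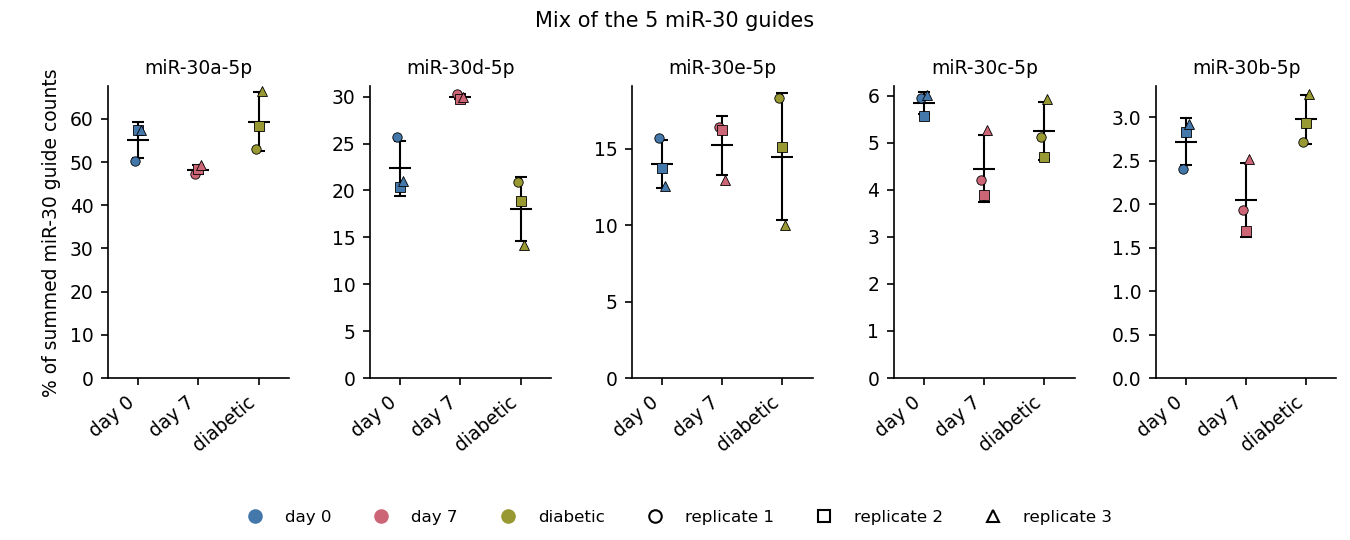
Share of each guide in the summed counts of the 5 miR-30 guides (percent, y axis, each panel with its own scale from 0) by group. Points are libraries, shaped by replicate, and bars give the mean and SD of 3. The day 7 libraries sit together near 30.01% for miR-30d-5p, above all other libraries, and near 48.3% for miR-30a-5p, below them.

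Ratios between pairs of guides, chosen after the values were seen and given as description, showed the same shift. Reads of miR-30d-5p per read of miR-30b-5p were 10.7, 7.20 and 7.17 at day 0, 15.6, 17.5 and 11.9 at day 7, while the diabetic libraries had 7.66, 6.44 and 4.33. Every day 7 library was above all 6 others. Reads of miR-30d-5p per read of miR-30a-5p were 0.355 to 0.511 at day 0, 0.609 to 0.643 at day 7 and 0.213 to 0.393 in diabetic skin, again with day 7 above all others. The opposite arms did not show it. Reads of miR-30d-3p per read of miR-30b-3p were 0.850 to 1.16 at day 0, 0.774 to 0.939 at day 7 and 1.03 to 1.71 in diabetic skin.

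The balance of the 2 arms was measured as the log2 ratio of 5p to 3p counts, with 0.5 added to each count, in the 4 hairpins whose arms are both members. The 5p arm was in excess in every hairpin and library. For miR-30d the excess was 229-fold to 302-fold at day 0, 399-fold to 530-fold at day 7 and 119-fold to 264-fold in diabetic skin. For miR-30b it was 24.1-fold to 37.0-fold at day 0, 19.8-fold to 31.4-fold at day 7 and 35.6-fold to 54.1-fold in diabetic skin. Over the 9 libraries it was 73.7-fold to 113-fold for miR-30a and 22.7-fold to 49.9-fold for miR-30e. The ratios of miR-30b and miR-30d rested on 43 to 153 counts of the 3p arm a library. For miR-30d-3p these were 72, 46 and 43 in day 7 replicates 1, 2 and 3. How reads were assigned to miR-30b and miR-30d could not be checked, because neither had a matched sequence.

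The log2 ratio of miR-30d was 8.24, 7.97 and 7.84 in day 0 replicates 1, 2 and 3, 8.64, 9.05 and 8.64 at day 7 and 8.04, 7.89 and 6.89 in diabetic skin. Day 7 stood above every other library, and diabetic replicate 3 was by far the lowest. The day 7 mean was 0.76 above day 0 and the diabetic mean differed from day 7 by -1.17, each with an exact two-sided permutation p of 0.1 and 0.4 after adjustment over 12 tests. Without diabetic replicate 3 the latter was -0.81 (exact permutation p = 0.2). For miR-30b the diabetic mean was 0.78 above day 7 (exact permutation p = 0.1, adjusted 0.4), with values of 5.16, 5.76 and 5.54 against 4.31, 4.83 and 4.97. The other 9 comparisons overlapped, with exact permutation p from 0.2 to 1. On the CPM scale, which rests on the same counts, day 7 lay above day 0 for miR-30d-5p and below it for miR-30d-3p. Neither difference passed the edgeR test (adjusted p = 0.0518 and 0.556).

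**Figure D5:**
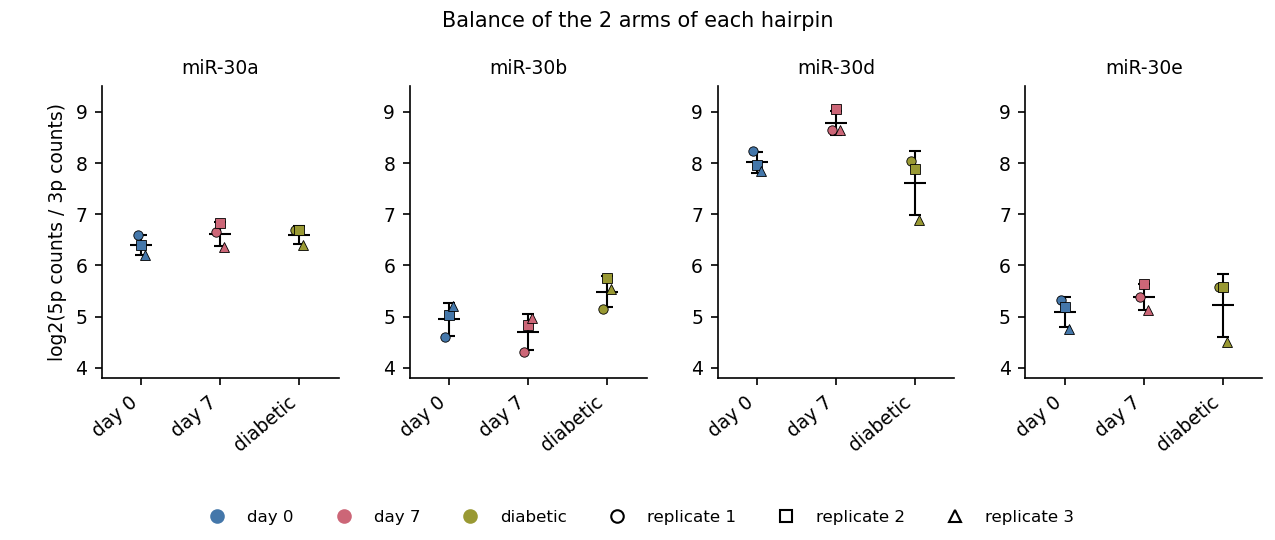
Log2 ratio of 5p to 3p counts (y axis) for the 4 hairpins with both arms among the members, by group. Points are libraries, shaped by replicate, and bars give the mean and SD of 3. For miR-30d the day 7 libraries (8.64 to 9.05) lie above all others and diabetic replicate 3 (6.89) lies lowest.

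Outside the 9 members, the table holds 5 further rows of the family or its seed. The strand miR-30c-2-3p, the opposite arm of Mir30c-2, had 63.4, 60.7 and 56.2 CPM at day 0, 46.0, 43.8 and 52.0 CPM at day 7 and 66.7, 72.0 and 72.7 CPM in diabetic skin. The 3 groups did not overlap, with day 7 lowest and the diabetic group highest. Its log2 difference was -0.35 ± 0.19 (SE) for day 7 against day 0 (edgeR adjusted p = 0.261) and 0.58 ± 0.19 for diabetic against day 7 (edgeR adjusted p = 0.0520). For diabetic against day 0 it was 0.23 ± 0.19 (edgeR adjusted p = 0.758). Of all miRNAs, 12.1% lay wholly lower at day 7 than at day 0. In diabetic skin 8.28% lay wholly above day 0 and 17.4% wholly above day 7. The opposite arm of Mir30c-1, miR-30c-1-3p, had 2.89 to 10.4 CPM with no call. Since miR-30c-5p comes from both hairpins and these arms differ from each other (G9A, U12C and C22U from miR-30c-1-3p to miR-30c-2-3p), they are the rows that tell the 2 hairpins apart.
miR-30c-1-3p: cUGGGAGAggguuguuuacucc
miR-30c-2-3p: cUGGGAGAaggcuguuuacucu
The row miR-30f, read from the strand opposite to Mir30e, had 39.9 to 73.1 CPM and no call. Its 22 bases share a run of 19 with the reverse complement of miR-30e-3p, and its counts were 38.6% to 48.0% of those of miR-30e-3p in every library (median 43.3%). Whether the authors' counting used strand is not stated, and without strand the reads of these 2 rows cannot be told apart. The seed sharer miR-384-5p and its opposite arm miR-384-3p had 0 to 2 and 0 to 4 counts and did not pass the filter on low counts.

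Other lists of miRNAs with related roles, chosen with earlier results known, are given as counts. Of 11 miRNAs known to restrain fibrosis genes, which include miR-26, miR-29 and miR-133, edgeR called 1 higher at day 7 than at day 0, near the 8.05% of all miRNAs (miR-19a-3p, log2 1.48 ± 0.34 SE, edgeR adjusted p = 0.0179). The same miRNA was lower in diabetic skin than at day 7 (-1.14 ± 0.33, edgeR adjusted p = 0.0326), where 12.1% of all miRNAs were called lower. The list's median log2 difference was -0.06 from day 0 to day 7, 0.28 from day 0 to the diabetic group and 0.10 from day 7 to the diabetic group. Those of the 9 members were -0.16, 0.17 and 0.44, or -0.21, -0.092 and 0.22 without diabetic replicate 3. Of 12 miRNAs known in adipocytes and thermogenic fat, edgeR called 1 lower at day 7 than at day 0, beside 4.7% of all miRNAs. This was miR-193b-3p, which promotes brown fat differentiation in mouse (-0.997 ± 0.28, edgeR adjusted p = 0.0406). In the diabetic group against day 7 miR-193b-3p was higher (1.34 ± 0.28, edgeR adjusted p = 0.00624), as was its cluster partner miR-365-3p (1.02 ± 0.24, edgeR adjusted p = 0.0129). These were 2 of the 12, beside 7.83% of all miRNAs called higher. That list's medians, in the same order, were -0.04, 0.26 and 0.41. Among 9 let-7 family guides, another abundant family, only miR-98-5p was called, higher in diabetic skin than at day 7 (1.29 ± 0.22, edgeR adjusted p = 0.00227), and the medians were 0.10, 0.16 and 0.07. That is 1 of 9, beside 7.83% of all miRNAs called higher. Over all miRNAs tested the medians were 0.08, 0.04 and -0.02.

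Markers of cell types moved between the groups as well, and in bulk skin fewer cells of a type and less RNA per cell cannot be told apart. The shares of all miRNAs to set beside the counts are 8.05% higher and 4.7% lower at day 7 than at day 0, and 7.83% higher and 12.1% lower in diabetic skin against day 7. Of 6 myeloid and lymphoid miRNAs, led by miR-142a-5p, edgeR called 5 higher at day 7 than at day 0 and 4 lower in diabetic skin than at day 7. Their summed level was 835 to 1073 CPM at day 0, 1691 to 2225 CPM at day 7 and 746 to 937 CPM in diabetic skin. The list's median log2 difference of diabetic skin from day 0 was -0.19, while miR-342-3p differed by 1.39 ± 0.24 (SE; edgeR adjusted p = 0.0569). The means of miR-342-3p were 17.3, 50.1 and 45.5 CPM at day 0, day 7 and in diabetic skin. Of 7 keratinocyte miRNAs, 3 were called lower at day 7 than at day 0 (miR-429-3p, miR-200a-3p and miR-205-5p). Called higher in diabetic skin than at day 7 were 3 (miR-429-3p, miR-200a-3p and miR-141-3p). The 7 had sums of 67984 to 81563, 57149 to 61562 and 62160 to 88867 CPM in the same order of groups. Most of the sum was miR-203-3p (mean 53131 CPM at day 0), which was called in neither comparison (edgeR adjusted p = 0.463 and 0.348). Of 3 erythroid miRNAs, edgeR called 2 (miR-144-3p and miR-451a), which were higher at day 7 and lower in diabetic skin than at day 7, with sums of 684 to 1328, 1608 to 2822 and 701 to 1039 CPM. The 2 endothelial miRNAs (5425 to 9962 CPM over all libraries), the 5 of fibroblasts and smooth muscle (65950 to 132056 CPM) and the liver miRNA gave no call. No marker passed the test between the diabetic group and day 0. The part of these markers in the miR-30 differences was not tested.

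Diabetic replicate 3, which had the most miR-30a-5p and miR-30b-5p, also had the highest sums of striated muscle, endothelial (9962 CPM) and fibroblast and smooth muscle miRNAs (132056 CPM). It had the lowest keratinocyte sum of the diabetic libraries. At day 7 the muscle sum ranged from 50399 to 100708 CPM and miR-30a-5p from 13278 to 13703 CPM. Most of the sum was miR-1a-3p, with a mean of 68805 CPM at day 7 and 48573 CPM at day 0. The mean of miR-206-3p was also higher at day 7. Those of miR-133a-3p (1984 against 2827 CPM) and miR-133b-3p (160 against 198 CPM) were lower. The part of muscle RNA in the level of these guides was not tested.

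The miRNAs most like the mean of the guides were sought by the Pearson correlation of log2 CPM with the mean log2 CPM of the 5 guides over the 9 libraries, among 298 miRNAs with a mean of at least 10 CPM. The guides do not all follow this mean. Over the 9 libraries miR-30d-5p had r of -0.68, -0.79 and -0.70 with miR-30a-5p, miR-30b-5p and miR-30c-5p, and miR-30e-5p had -0.27, -0.37 and -0.58, while miR-30a-5p, miR-30b-5p and miR-30c-5p had r of 0.80 to 0.90 among themselves. The 5 most alike were miR-133b-3p (r = 0.914), miR-145a-5p (0.910), miR-126b-5p (0.890), miR-133a-3p (0.889) and miR-143-5p (0.870), and the median r was 0.00916. All 5 had their highest mean in diabetic skin. For miR-145a-5p the group means were 617 ± 101 (SD, n = 3), 566 ± 44.3 and 767 ± 171 CPM at day 0, day 7 and in diabetic skin. For miR-133a-3p they were 2827 ± 656, 1984 ± 863 and 3816 ± 2129 CPM. The most opposite were miR-433-3p (-0.880), miR-15b-5p (-0.855), miR-361-5p (-0.836), miR-615-3p (-0.835) and miR-484 (-0.815), all 5 with their highest mean at day 7. For miR-15b-5p, a miRNA of the family that restrains the cell cycle, the means were 80.6 ± 7.02, 117 ± 14.0 and 65.8 ± 20.1 CPM. These correlations describe 9 libraries of 3 groups, and the libraries share their scaling. The mean log2 CPM of the guides was 11.87 in diabetic replicate 2, 12.03 in diabetic replicate 3 and 11.56 to 11.71 in the other libraries. Diabetic replicate 3 therefore weighs most on the correlations, and those named are the extremes of 298.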

How the data were processed

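The authors deposited 1 table with a read count and a TPM value per miRNA and library, per the file headers. The deposited counts are whole and not normalized. As deposited, TPM is the CPM of the library total, as checked on the table, so length plays no part in it. Bowtie, DESeq 3.0.3 and the build mm9 are named without roles, per the submitters' processing notes. Total RNA was taken up in TRIzol and small RNA libraries were ligated with NEB adaptors, per the labels' protocols. The sources used here do not give trimming, mismatches, the handling of multiple matches or strand.

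Counts were tested with edgeR 4.0.16 (R 4.3.3) by the quasi-likelihood F test, with TMM scaling, filterByExpr (minimum count 10, minimum total 15) and 1 fit of all 9 libraries, and p-values were Benjamini-Hochberg adjusted over 447 miRNAs. SEs came from the F statistic. The common biological coefficient of variation was 27.8%. DESeq2 1.42.0 and limma 3.58.1 on log2(TPM + 1) were alternatives, with other scalings, filters and libraries left out. Guide shares and arm ratios, which need no library scaling, were tested by exact two-sided permutation over libraries. The family's share of counts, which depends on the library total, was tested in the same way. Table columns of the diabetic group were matched to its samples by their shared T and number.

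Same-numbered libraries of different groups deviated together (r = 0.102 to 0.484 over all miRNAs tested, over 0.1 in 9 of 9 pairs), so the numbers pair the libraries by the data, while the labels do not say what a number stands for. No 2 libraries of a group agreed within counting noise (chi-square per degree of freedom 155 to 1291). The 9 members, the lists and the markers were chosen with earlier results of these data known. The text names all 9 members, the other family rows, the 5 most and 5 least alike miRNAs, and up to 3 listed miRNAs of highest level. Listed miRNAs named for a call, miR-342-3p and the guide ratios were chosen after their values were seen.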

Additional observations from a re-analysis of the deposited data

How the results depend on the processing

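Counts of members called depended on the scaling. For day 7 against day 0 (0 members), total-count scaling and limma on log2(TPM + 1) each called 6, a minimum mean of 10 CPM called 1, and leaving out 1 library gave 0 to 1. For diabetic against day 7 (2 members), upper-quartile scaling called 1, total-count scaling 7 and limma 6, and leaving out 1 library gave 0 to 3. For diabetic against day 0 the count was 0 under all 19 alternatives. The replicate block called 0, 0 and 2 members in the same comparisons as the main analysis and changed no call of a member. Paired differences of guide shares and arm balance, added after seeing the data, had exact permutation p of 0.25 to 1. Over all miRNAs, day 7 against day 0 gave 36 higher and 21 lower, from 16 to 45 higher and 3 to 30 lower without 1 library, 30 and 7 scaled by totals without miR-21a-5p, 16 and 117 by totals, and 13 and 96 by limma. Diabetic against day 7 gave 35 and 54, from 20 to 46 and 29 to 57 without 1 library, 174 and 24 by totals, and 169 and 24 by limma. Diabetic against day 0 gave 0 and 0, at most 4 and 6 (no filter). Under total-count scaling and limma, miR-30d-5p turned to -0.092 and -0.068 (day 7 against day 0) and to 0.070 and 0.055 (diabetic against day 7), and miR-30e-5p at day 7 turned to -0.40 and -0.38, and to -0.046 with upper-quartile scaling. Of diabetic against day 7, miR-30b-3p turned to 0.039 (upper quartile), 0.57 (total count), 0.034 (no filter) and 0.56 (limma), with -0.19 to 0.17 when 1 library was left out, and miR-30e-5p to -0.00678 (total without miR-21a-5p) and -0.0134 (minimum mean of 10 CPM). Of diabetic against day 0, miR-30c-5p turned to -0.010 (upper quartile) and -0.030 (total without miR-21a-5p). Leaving out 1 library gave -0.17 to 0.21 for miR-30c-5p, -0.21 to 0.39 for miR-30a-3p, -0.029 to 0.57 for miR-30d-3p and -0.16 to 0.24 for miR-30e-3p, each lowest without diabetic replicate 3. Without miR-21a-5p in the total, the family share of day 7 less day 0 was 0.153 percentage points. Leaving out 1 library also turned the arm balance of miR-30e (-0.048 to 0.49 against day 0, -0.34 to 0.19 against day 7) and miR-30a (-0.14 to 0.092 against day 7) and the guide share of miR-30e-5p (-1.45 to 2.68 and -2.65 to 1.48 percentage points) in the diabetic group. Beyond the construction of each alternative, the cause was not tested. With 3 libraries a group, exact tests cannot go below 0.1, and counts of 43 to 153 limit miR-30b-3p and miR-30d-3p.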
